A study of Mus musculus with 12 samples.

Results

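Measured here were 41 mouse genes of the interferon response and of class I antigen presentation, chosen by name. They comprise 27 genes induced chiefly by type I interferon, the interferon regulatory factors Irf1 and Irf8, 5 GTPases induced by interferon gamma, and 7 genes that process and load peptides for class I molecules. Of the 41 genes, 39 had a probe set naming that gene alone, among 18193 such genes on the arrays. The probe set of Isg15, a ubiquitin-like modifier, named several genes, and Ifi44 had no probe set of its own, so neither has a value here.

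Type I interferons signal through a receptor, Janus kinases and a complex holding Stat2 and Irf9 that binds the interferon-stimulated response element (ISRE). Interferon gamma signals through another receptor to genes with a gamma-activated site (GAS), and Irf1 carries the signal onwards. The induced genes sense and degrade viral RNA, block viral replication and entry, attack the vacuoles of intracellular parasites, and raise the display of peptides on class I molecules. In that pathway the immunoproteasome cuts proteins, the Tap transporter carries the peptides into the endoplasmic reticulum, and tapasin loads them onto a heavy chain paired with beta 2 microglobulin. In liver, hepatocytes, endothelial cells, macrophages and lymphocytes all respond to interferon.

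RNA came from 6 spontaneous hepatocellular carcinomas (HCC) and from 6 normal livers as controls. All were from untreated B6C3F1 mice of 2 years, a hybrid widely used in carcinogenicity bioassays and known for frequent spontaneous liver tumours, held in a National Toxicology Program study. Each sample was hybridised to 1 single-colour Affymetrix array. The labels give no sex and do not say whether any tumours came from the same mouse, so the p-values measure the spread between these 12 samples. Values below are log2(intensity + 16) after quantile normalization, on a scale that starts at 4, has its median probe set at 6.76 and ends at 16.06. A difference is HCC minus normal on that scale, and a gene passed the test where limma's adjusted p was under 0.05 over all 18193 genes.

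The median deposited intensity per array lay between 92.4 and 114, and 14.2% to 18.1% of probe sets were below 16. Of 7 measured hepatocyte markers, 0 passed the test, and their summed intensity was 326275 to 420716 in HCC and 285834 to 377648 in normal livers. Their log2 intensities lay at 14.80 to 16.06, near or at the top of the scale, so they can hardly show a change in hepatocyte content. Y-linked transcripts were near the floor in HCC 1 and HCC 4 and in normal 1 and normal 3, and high in the other 8 arrays. The X-inactivation transcript Xist was at 11.79, 12.03, 11.97 and 12.70 in HCC 1, HCC 4, normal 1 and normal 3. In the other 8 arrays Xist lay at 5.12 to 7.56. HCC 6 stood apart from the other tumours: its 7 stellate cell and fibroblast markers averaged 3.18 above the normal mean, against -1.75 to 0.40 in HCC 1 to HCC 5, and its 5 pan-leukocyte markers averaged 2.34 above it. For many of the measured interferon and class I genes the difference is therefore also given without HCC 6. Other differences are given with HCC 6 only, and it moves some of these as well. In tissue RNA, fewer cells of a type and less RNA per cell cannot be told apart.

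The promoters of 7 genes are shown because they span the patterns described below. Rsad2 and Bst2 passed the test and hold an ISRE core, Ifit1 and Ifit3 hold it in duplicate and did not pass, Irgm1 is a GTPase with hardly any difference, Psmb9 passed and holds no core, and B2m holds the core and did not pass. Each line gives the 250 bases before the RefSeq start on the gene's own strand, 5′ to 3′, and capitals mark the ISRE core, which is GAAA, any 2 bases and GAAA again (TTTC, any 2 bases and TTTC on the other strand), and the GAS core TTCNNNGAA.
Rsad2: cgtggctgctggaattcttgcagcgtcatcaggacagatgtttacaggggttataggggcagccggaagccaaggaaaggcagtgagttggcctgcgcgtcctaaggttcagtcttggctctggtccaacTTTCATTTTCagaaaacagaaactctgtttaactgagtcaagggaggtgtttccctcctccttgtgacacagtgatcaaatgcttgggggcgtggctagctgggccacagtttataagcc
Bst2: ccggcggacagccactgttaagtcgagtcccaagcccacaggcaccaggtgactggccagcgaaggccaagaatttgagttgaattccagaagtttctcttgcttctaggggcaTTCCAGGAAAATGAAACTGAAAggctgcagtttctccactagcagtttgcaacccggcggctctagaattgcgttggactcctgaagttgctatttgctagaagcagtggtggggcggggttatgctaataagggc
Ifit1: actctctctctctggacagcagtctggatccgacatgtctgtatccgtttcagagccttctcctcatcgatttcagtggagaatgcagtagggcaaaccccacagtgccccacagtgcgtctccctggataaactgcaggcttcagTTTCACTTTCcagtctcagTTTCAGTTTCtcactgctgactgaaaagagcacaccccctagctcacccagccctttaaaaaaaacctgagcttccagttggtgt
Ifit3: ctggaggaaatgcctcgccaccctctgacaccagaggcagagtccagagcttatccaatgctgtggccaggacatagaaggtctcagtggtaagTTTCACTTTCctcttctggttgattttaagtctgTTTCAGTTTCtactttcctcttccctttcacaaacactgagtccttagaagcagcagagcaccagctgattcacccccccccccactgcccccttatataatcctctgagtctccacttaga
Irgm1: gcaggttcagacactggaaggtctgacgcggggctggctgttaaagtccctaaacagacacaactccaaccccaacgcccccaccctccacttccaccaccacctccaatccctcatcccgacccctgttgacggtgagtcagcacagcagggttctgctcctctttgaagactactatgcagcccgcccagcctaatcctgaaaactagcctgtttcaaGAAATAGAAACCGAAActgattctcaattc
Psmb9: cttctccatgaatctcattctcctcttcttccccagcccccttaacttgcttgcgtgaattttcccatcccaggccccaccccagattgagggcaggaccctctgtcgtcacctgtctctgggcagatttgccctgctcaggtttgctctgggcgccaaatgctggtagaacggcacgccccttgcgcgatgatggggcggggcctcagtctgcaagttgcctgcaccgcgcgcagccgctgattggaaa
B2m: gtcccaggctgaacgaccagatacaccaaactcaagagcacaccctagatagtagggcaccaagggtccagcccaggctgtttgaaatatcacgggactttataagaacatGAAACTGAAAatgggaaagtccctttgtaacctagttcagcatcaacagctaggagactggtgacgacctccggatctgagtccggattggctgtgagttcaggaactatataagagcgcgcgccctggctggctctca
These windows lie in GRCm38.p6 at chr12:26456453-26456702 on the minus strand for Rsad2, chr8:71537473-71537722 on the minus strand for Bst2, chr19:34640639-34640888 on the plus strand for Ifit1, chr19:34583279-34583528 on the plus strand for Ifit3, chr11:48871421-48871670 on the minus strand for Irgm1, chr17:34187331-34187580 on the minus strand for Psmb9 and chr2:122147437-122147686 on the plus strand for B2m.

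Windows reached from 250 bases before to 50 bases after the start, and 30 of the 39 measured genes had a RefSeq sequence there. Isg15 and Ifi44 were not searched. Of the 30, 14 (46.7%) held the ISRE core on either strand, against 1079 of 27025 genes (3.99%). The GAS core, a palindrome, was found in 8 of the 30 (26.7%), against 2582 of 27025 genes (9.55%). By group, the ISRE core was found in 9 of 18 type I induced genes, 4 of 4 gamma induced GTPases, 1 of 6 class I processing genes and neither Irf1 nor Irf8, whose windows both held the GAS core. Ifit1, Ifit3, Bst2 and Irgm1 hold it at 2 places in the printed stretch. In Rsad2 the core begins 120 bases before the start, and in B2m 139 bases before it. In Bst2, the pair of ISRE cores, which begin 130 and 124 bases before the start, overlap each other, and a GAS core beginning 136 bases before the start overlaps them. Psmb9 and Tap1 lie head to head on chromosome 17, their windows share 275 bases, and neither window holds these letters. Of the genes past the test, Rsad2 and Bst2 held the ISRE core, Ifit2 held only a GAS core, and Psmb9 and Tapbp held neither. Usp18 and Tap2 had no window to search. A match is a description of letters, not of binding.

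Of the 39 measured genes, 7 were higher in HCC (17.9%), 0 were lower and 32 did not pass. Among all genes tested, 6.48% were higher and 7.24% were lower. At an unadjusted p under 0.05 from limma, 15 of the 39 were higher (38.5%) and 0 were lower, against 12.9% higher and 15.7% lower of all genes. The difference was above 0 in 35 of 39 genes, with a median of 0.40, while 8326 of all 18193 genes (45.8%) were above 0 with a median of -0.04. In 5 of the 39 (12.8%), Ifit2, Rsad2, Psmb8, Psmb9 and Tap2, every HCC lay above every normal liver, which held for 4.25% of all genes, and no member had every HCC below every normal liver, against 4.5%. The 7 were the type I induced Ifit2, Usp18, Rsad2 and Bst2 and the class I processing genes Tap2, Psmb9 and Tapbp.

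The count of 7 moved when single arrays were left out. It was 3 without HCC 5, normal 3 or normal 4, 4 without normal 1, normal 2, normal 5 or normal 6, and 5 to 8 without any other array. Without HCC 6 it was 6, with Bst2 and Tapbp lost and Psmb8 gained, the median difference was 0.26, and 30 of 39 differences were above 0. Ifit2, Usp18 and Tap2 passed in 12 of 12 such fits, with limma adjusted p up to 0.0304, 0.0364 and 0.0252. By the exact Wilcoxon test over all genes Usp18 missed the threshold, with an adjusted p of 0.0576.

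**Figure D1:**
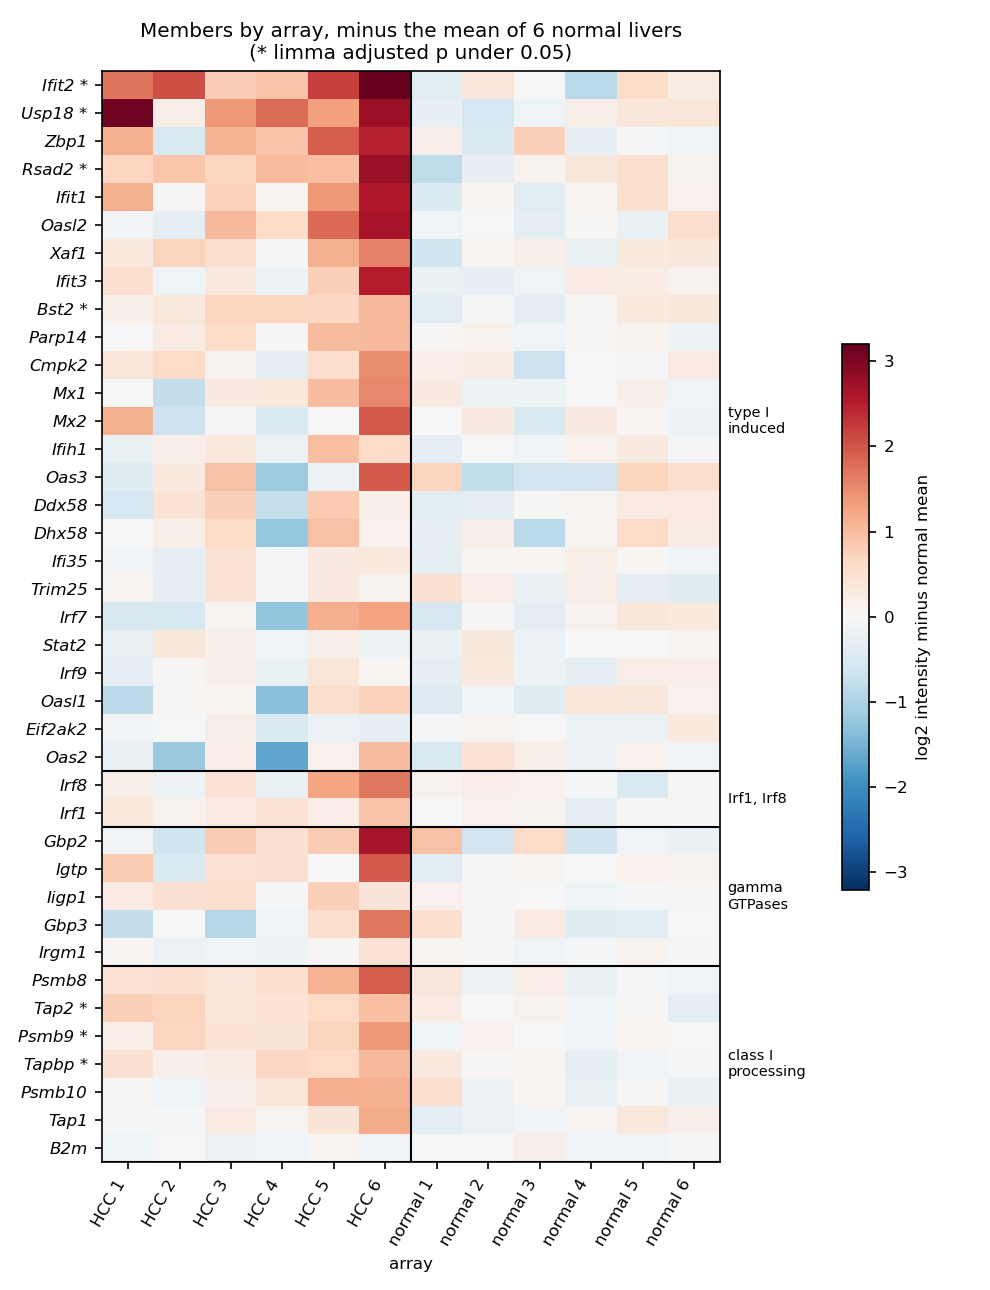
Heat map of the 39 measured genes (rows, by group) in each array (columns, HCC left of normal), as log2 intensity minus the mean of the 6 normal livers, from blue below to red above. The HCC 6 and HCC 5 columns are the most uniformly red, HCC 2 and HCC 4 hold blue cells among the type I induced genes, and stars mark the 7 genes past the test.

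Among the type I induced genes Ifit2, Usp18, Rsad2 and Bst2 were higher in HCC by 0.60 to 1.88. Of 25 measured, 4 were higher, 0 were lower and 21 did not pass, with 22 differences above 0, a median of 0.33 and a range of -0.29 to 1.88. The largest differences belonged to Ifit2 and Usp18.

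Ifit2, which binds viral RNA and restrains its translation, had log2 intensities of 8.85, 9.21, 7.92, 8.05, 9.34 and 10.71 in HCC 1 to HCC 6, against 6.29 to 7.72 with a median of 7.25 in normal livers. All 6 tumours lay above all 6 normal livers, HCC 6 highest and HCC 3 lowest. The difference was 1.88 ± 0.43 (SE), or 3.67-fold with a 95% interval of 1.93 to 6.96 and a limma adjusted p of 0.0127, and without HCC 6 it was 1.54. In deposited units Ifit2 was at 240 to 1705 in HCC and 61.8 to 182 in normal livers.

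Usp18, the protease that removes Isg15 and dampens signalling at the type I receptor, had 11.74, 8.83, 10.02, 10.42, 9.94 and 11.37 in HCC 1 to HCC 6, against 8.08 to 9.02 with a median of 8.66 in normal livers. HCC 2 lay inside the normal range and the other 5 tumours above it, with HCC 1 highest. The difference was 1.76 ± 0.42, or 3.38-fold, with a limma adjusted p of 0.0154. HCC 1 was also the tumour with the lowest pan-leukocyte markers, at -0.49 against the normal mean, where single normal livers reached down to -0.48. A link between these was not tested.

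Rsad2, known as viperin, a radical enzyme that makes a chain-terminating nucleotide, had 10.03, 10.22, 10.01, 10.34, 10.31 and 12.10 in HCC 1 to HCC 6, against 8.52 to 9.85 with a median of 9.44 in normal livers. The groups did not overlap, HCC 1 to HCC 5 lay close together, and HCC 6 stood well above them. The difference was 1.17 ± 0.35, 2.24-fold, with a limma adjusted p of 0.0438. Without HCC 6 the difference was 0.85 and still passed, as it did without HCC 1 or HCC 3, but it missed the threshold when any of the other 9 arrays was left out, with adjusted p up to 0.0851. The 3 probe sets of Rsad2 gave differences of 1.01 to 1.17.

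Bst2, or tetherin, which holds budding virus particles at the cell surface, had 11.57, 11.75, 12.11, 12.10, 12.08 and 12.46 in HCC 1 to HCC 6, against 11.05 to 11.76 with a median of 11.41 in normal livers. HCC 1 and HCC 2 overlapped the normal range and the other 4 lay above it. The difference was 0.60 ± 0.18, 1.51-fold, with a limma adjusted p of 0.0474. The call was kept without HCC 1, HCC 2, normal 5 or normal 6 and lost without any of the other 8 arrays, with adjusted p up to 0.0952.

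**Figure D2:**
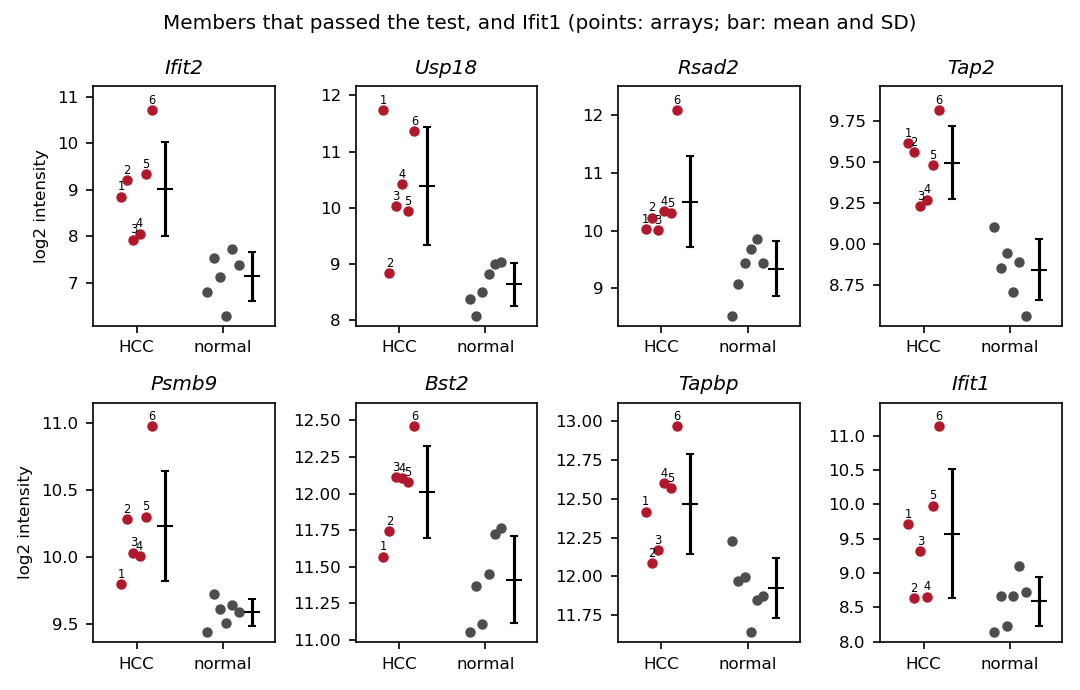
Log2 intensity of the 7 genes past the test and of Ifit1, each panel with its own axis, HCC left (red, numbered by tumour) and normal right (grey), with mean and SD bars. The groups do not overlap in Ifit2, Rsad2, Tap2 and Psmb9, and overlap in Usp18, Bst2, Tapbp and Ifit1.

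Ifit1, which binds viral RNA lacking cap methylation, had 9.71, 8.63, 9.32, 8.66, 9.98 and 11.14 in HCC 1 to HCC 6, against 8.14 to 9.11 in normal livers, a difference of 0.99 ± 0.38 with a limma adjusted p of 0.104. Ifit3, a partner of Ifit1, lay at 9.04 to 11.75 in HCC and 8.98 to 9.48 in normal livers, and its difference of 0.64 did not pass (adjusted p = 0.307). In both genes HCC 2 and HCC 4 were within the normal range and HCC 6 far above it. Leaving HCC 6 out gave differences of 0.67 in Ifit1 and 0.26 in Ifit3. The 3 Ifit genes lie on chromosome 19.

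The oligoadenylate synthetases sense double-stranded RNA and activate RNase L. Of the 4 synthetases and synthetase-like proteins measured in this group, 0 passed. Oasl2, an oligoadenylate synthetase-like protein, had 7.30, 7.09, 8.42, 7.97, 9.19 and 10.03 in HCC 1 to HCC 6, against 7.11 to 7.95 in normal livers (difference 0.94 ± 0.43, limma adjusted p 0.174). Its tumours ran from just under the normal range to well over it. Oas3 had 5.78, 6.49, 7.11, 5.01, 5.98 and 8.12 in HCC 1 to HCC 6, against 5.37 to 6.87 in normal livers, with HCC 4 below and HCC 3 and HCC 6 above the normal range (difference 0.25 ± 0.49, adjusted p 0.790). Oas2 and Oasl1 differed by -0.29 and -0.13, with 2 tumours each below all normal livers. Above all normal livers lay 1 tumour in Oas2 and 2 in Oasl1. The Oas3 difference ran from -0.10 to 0.53, and that of Oasl1 from -0.31 to 0.11, as single arrays were left out. Over HCC 1 to HCC 5 alone the differences were 0.60 in Oasl2, -0.0953 in Oas3, -0.54 in Oas2 and -0.31 in Oasl1.

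Neither Mx GTPase, of a family that traps viral nucleocapsids, passed. Mx2 had 6.67, 4.85, 5.45, 5.08, 5.54 and 7.49 in HCC 1 to HCC 6, against 5.04 to 5.82 in normal livers, with HCC 1 and HCC 6 above, HCC 2 below and the rest within that range. Its difference was 0.33 ± 0.40 (limma adjusted p 0.646), and that of Mx1 was 0.40 (adjusted p 0.452). Without HCC 6 the differences were -0.00155 in Mx2 and 0.16 in Mx1, and Mx2 lay below the median probe set in every array except HCC 6.

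Among the sensors, Zbp1, which recognises left-handed nucleic acid and can start necroptosis, had 8.59, 6.96, 8.52, 8.35, 9.37 and 9.92 in HCC 1 to HCC 6, against 6.98 to 8.20 with a median of 7.34 in normal livers. HCC 2 was just below the normal range and the other 5 tumours above it. The difference was 1.18 ± 0.41 with a limma adjusted p of 0.0759, and without HCC 6 it was 0.92. Zbp1 passed in 1 of 12 fits that left out single arrays, the one without HCC 2 (1.51, adjusted p 0.00849). In the other fits its adjusted p was up to 0.140. The RNA helicase sensors Ifih1, Ddx58 and Dhx58 differed by 0.27, 0.15 and 0.12, and the kinase Eif2ak2, which halts translation on double-stranded RNA, by -0.14. Trim25, the ubiquitin ligase that acts on Ddx58, differed by 0.10, and none of these 5 passed.

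Of the transcription factors, Irf9, the DNA-binding part of the type I complex, had the smallest difference of the group. It had 9.58, 9.89, 10.01, 9.63, 10.23 and 9.90 in HCC 1 to HCC 6, against 9.54 to 10.16 in normal livers, a difference of 0.02 ± 0.16 with a 95% interval of -0.33 to 0.38. Its partner Stat2 differed by 0.04, with an interval of -0.29 to 0.36. Irf7, the amplifier of type I interferon transcription, had 9.19, 9.19, 9.78, 8.47, 10.86 and 10.98 in HCC 1 to HCC 6, against 9.18 to 10.05 in normal livers (difference 0.05 ± 0.40, limma adjusted p 0.956). HCC 5 and HCC 6 lay above every normal liver, HCC 4 below every one, and the remaining 3 within the range. The Irf7 difference was -0.20 without HCC 6, and that of Stat2 was 0.0765.

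The other type I induced genes did not pass: Xaf1, a partner of a caspase inhibitor, differed by 0.71 (limma adjusted p 0.108), Parp14, an ADP-ribosyltransferase, by 0.49, Cmpk2, a mitochondrial nucleotide kinase beside Rsad2 on chromosome 12, by 0.47, and Ifi35 by 0.11. Without HCC 6 Cmpk2 differed by 0.27 and Ifi35 by 0.0640.

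**Figure D3:**
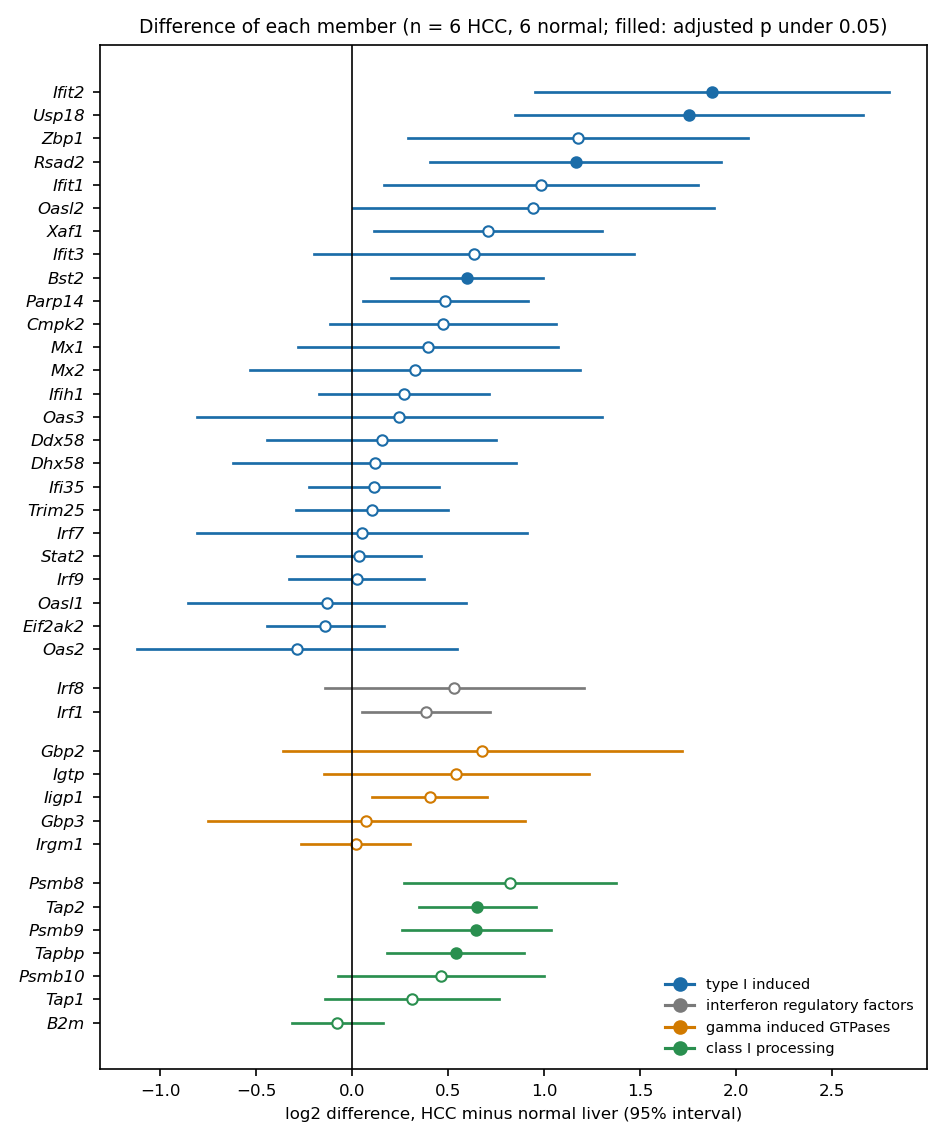
Difference of each of the 39 genes, HCC minus normal, in log2 units with its 95% interval, by group (filled points passed the test). The points of 35 genes lie right of 0, from 0.02 to 1.88, and the 4 left of 0 reach -0.29.

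Both regulatory factors had positive differences that did not pass. Irf1, the factor that gamma interferon induces early, had 10.56, 10.33, 10.47, 10.70, 10.44 and 11.14 in HCC 1 to HCC 6, against 9.91 to 10.36 in normal livers (0.38 ± 0.15, limma adjusted p 0.117), with 5 of 6 tumours above every normal liver. Irf8, a factor of myeloid cells and lymphocytes, had 8.10, 7.75, 8.37, 7.70, 9.17 and 9.61 in HCC 1 to HCC 6, against 7.47 to 8.13 in normal livers (0.53 ± 0.31, adjusted p 0.290), with 3 tumours above that range, and differed by 0.30 without HCC 6.

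Of the 5 gamma induced GTPases, which assemble on parasite vacuoles, 0 passed in either direction. Their differences were all above 0, from 0.02 to 0.68 with a median of 0.40, and 3 (Gbp2, Igtp and Iigp1) had differences of 0.40 or more. Iigp1 came closest to the threshold, with 14.28, 14.51, 14.54, 13.99, 14.77 and 14.44 in HCC 1 to HCC 6, against 13.87 to 14.14 in normal livers (0.40 ± 0.14, limma adjusted p 0.0736). Its tumours, HCC 4 apart, lay above all normal livers. Iigp1 passed in 1 of 12 fits that left out single arrays, the one without HCC 4, at 0.0291. In the other fits its adjusted p was up to 0.140. The other, dimmer probe set of Iigp1 differed by 0.67. In a limma fit over all probe sets its adjusted p was 0.0292, against 0.124 for the brightest. That fit also moved members past the test. The brightest probe sets of Rsad2, Bst2, Psmb9 and Tapbp missed the threshold there, at adjusted p 0.0587, 0.0733, 0.0513 and 0.0770. Those of Ifit2, Usp18 and Tap2 passed, as did the dimmer probe sets of Rsad2 (0.0454 and 0.0300) and Tapbp (0.0261).

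Gbp2 had 7.93, 7.38, 8.83, 8.50, 8.82 and 10.66 in HCC 1 to HCC 6, against 7.37 to 8.95 in normal livers, so HCC 6 alone lay above the normal range (0.68 ± 0.48, limma adjusted p 0.392). Without HCC 6 the Gbp2 difference was 0.28. Irgm1, a regulator of the other immunity-related GTPases, had 11.09, 10.84, 10.91, 10.87, 11.07 and 11.48 in HCC 1 to HCC 6, against 10.92 to 11.14 in normal livers (0.02 ± 0.13, interval -0.27 to 0.30), with 3 tumours below and 1 above that range. Igtp differed by 0.54 and Gbp3 by 0.0744. These 2 and Irgm1 differed by 0.26, -0.25 and -0.0699 without HCC 6.

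Among the class I processing genes Tap2, Psmb9 and Tapbp were higher in HCC by 0.54 to 0.65. Of 7 genes, 3 were higher in HCC, 0 were lower and 4 did not pass, with 6 differences above 0 and a median of 0.54. Psmb8, Psmb9, Tap1, Tap2 and Tapbp all lie on chromosome 17, Psmb10 on chromosome 8 and B2m on chromosome 2.

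Tap2, a subunit of the peptide transporter, had 9.62, 9.56, 9.23, 9.27, 9.48 and 9.82 in HCC 1 to HCC 6, against 8.56 to 9.10 with a median of 8.87 in normal livers. The groups did not overlap and the tumours lay close together. The difference was 0.65 ± 0.14, 1.57-fold with a 95% interval of 1.27 to 1.94, and its limma adjusted p of 0.00980 was the only one among the 39 under 0.01. Tap1, the other subunit, had 8.73, 8.72, 9.03, 8.84, 9.18 and 9.94 in HCC 1 to HCC 6, against 8.48 to 9.09 in normal livers, with 2 tumours above that range (0.31, adjusted p 0.363), and differed by 0.14 without HCC 6.

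Psmb9, a catalytic subunit of the immunoproteasome, had 9.80, 10.29, 10.04, 10.01, 10.30 and 10.98 in HCC 1 to HCC 6, against 9.44 to 9.73 with a median of 9.60 in normal livers. The groups did not overlap, and the difference was 0.65 ± 0.18, 1.57-fold, with a limma adjusted p of 0.0316. The call was lost without HCC 5, normal 1, normal 3, normal 4, normal 5 or normal 6, with adjusted p up to 0.0644. Without HCC 6 the difference was 0.50 and passed.

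Psmb8, another catalytic subunit, had the largest difference of the group, 0.82 ± 0.26, and just missed the threshold with a limma adjusted p of 0.0505. It had 10.60, 10.63, 10.52, 10.64, 11.24 and 12.07 in HCC 1 to HCC 6, against 9.92 to 10.49 with a median of 10.03 in normal livers. All tumours lay above all normal livers, HCC 1 to HCC 4 by a small margin. Without HCC 2, HCC 3 or HCC 6 Psmb8 passed, and without HCC 6 its difference was 0.60. Psmb10, the remaining catalytic subunit, lay at 10.12 to 11.42 in HCC and 10.00 to 10.78 in normal livers, with HCC 5 and HCC 6 above that range (0.46, adjusted p 0.247).

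Tapbp, or tapasin, had 12.42, 12.09, 12.17, 12.60, 12.56 and 12.96 in HCC 1 to HCC 6, against 11.64 to 12.23 with a median of 11.92 in normal livers. HCC 2 and HCC 3 overlapped the normal range. The difference was 0.54 ± 0.17, 1.45-fold, with a limma adjusted p of 0.0476, and it was kept without HCC 2, HCC 3 or normal 1 and lost without any of the other 9 arrays, with adjusted p up to 0.0997.

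B2m, the light chain shared by all class I molecules, was the exception in sign. It had 15.45, 15.59, 15.41, 15.48, 15.69 and 15.49 in HCC 1 to HCC 6, against 15.49 to 15.78 in normal livers (-0.08 ± 0.11, interval -0.31 to 0.16, limma adjusted p 0.701). These values lie near the top of the scale at 16.06.

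The immunoproteasome subunits replace the constitutive subunits Psmb5, Psmb6 and Psmb7 when induced, so their shift within each array was compared after the data had been seen. The pairs reuse the Psmb8, Psmb9 and Psmb10 values above and are adjusted over 3 pairs, not over all genes. Their p-values are therefore no separate support for those differences. The Psmb8 difference exceeded that of Psmb5 by 0.87, with 6 of 6 tumours beyond every normal liver (exact two-sided permutation p = 0.00216, the smallest that 6 against 6 allows, and 0.00649 after Benjamini-Hochberg adjustment over the 3 pairs). The Psmb9 difference exceeded that of Psmb6 by 0.71, with 4 of 6 tumours beyond every normal liver (exact permutation p = 0.00866, adjusted 0.0130). The Psmb10 difference exceeded that of Psmb7 by 0.38, with 2 of 6 (exact permutation p = 0.221). Without HCC 6 these values were 0.63, 0.56 and 0.28, and the adjusted permutation p of the Psmb8 and Psmb9 pairs stayed under 0.05. Of 8 measured constitutive proteasome genes 0 passed, with differences of -0.06 to 0.25.

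**Figure D4:**
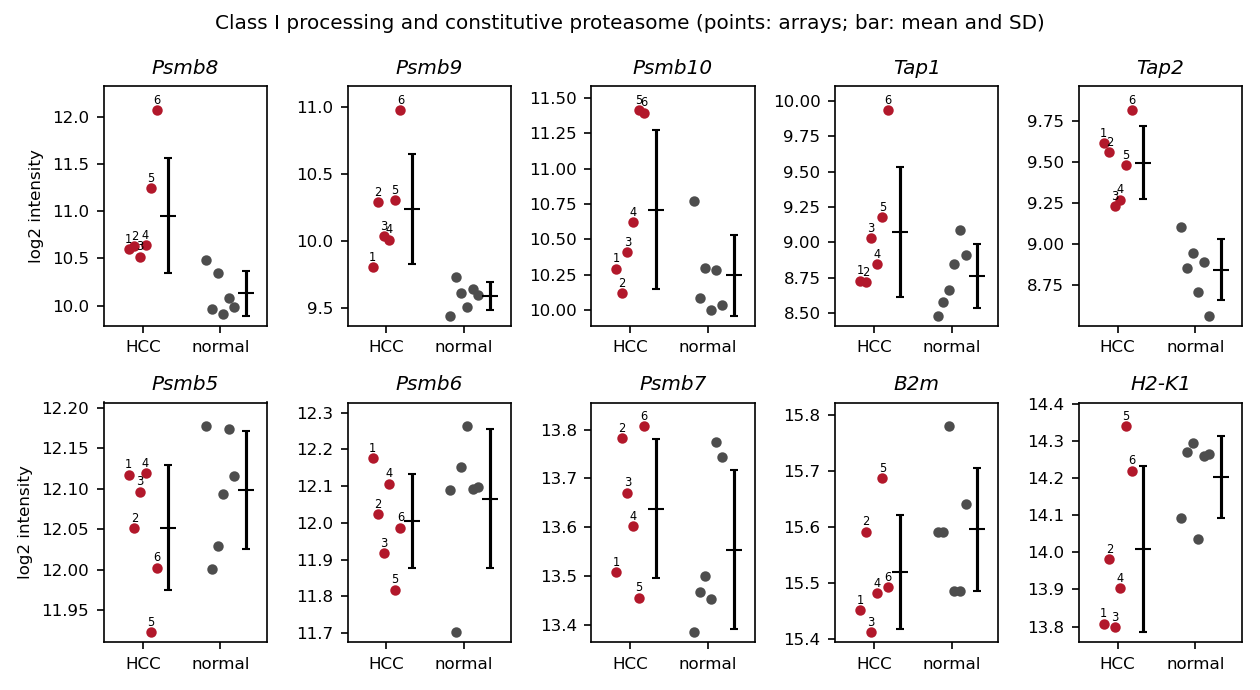
Log2 intensity of class I processing genes, 3 constitutive proteasome subunits and the heavy chain H2-K1, each panel with its own axis, HCC left (red, numbered by tumour) and normal right (grey), with mean and SD bars. Psmb8, Psmb9 and Tap2 separate the groups. The groups overlap in B2m, near the top of the scale, and in H2-K1, at 13.80 to 14.34.

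The tumours differed among themselves more than the normal livers did. The SD among HCC was larger than among normal livers in 36 of 39 genes (92.3%), against 11769 of 18193 genes (64.7%), and the median SD was 0.61 in HCC and 0.28 in normal livers, against 0.45 and 0.34 over all genes. An SD above 1 was found in HCC in 8 of the 39 genes (20.5%, against 6.79% of all genes), namely Ifit2, Usp18, Irf7, Oasl2, Oas3, Mx2, Zbp1 and Gbp2, and in normal livers in 0 (against 2.93%). Without HCC 6 the SD was larger in HCC in 31 of 39 (79.5%, against 61.0% of all genes), the median SD was 0.44, and Usp18 was the only gene left with an SD above 1, against 6.46% of all genes.

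Tumour by tumour, HCC 6 had 32 of 39 genes above every normal liver (82.1%), HCC 5 had 29 (74.4%), HCC 3 had 23 (59.0%), HCC 1 had 15 (38.5%), HCC 4 had 13 (33.3%) and HCC 2 had 10 (25.6%). Over all genes the same share lay between 20.1% and 24.8% in every tumour. HCC 6 was the highest tumour in 27 of 39 genes (69.2%, against 18.5% of all genes). HCC 2 was the lowest in 15 (38.5%, against 15.0% of all genes) and HCC 4 in 12 (30.8%, against 15.7%). Genes below every normal liver numbered 9 in HCC 4 (23.1%, against 26.4% of all genes), 7 in HCC 2 (17.9%, against 21.8%), and 1 each in HCC 5 and HCC 6 (2.56%, against 24.3% and 30.0%). These shares describe single tumours and carry no test.

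The groups of genes ordered the tumours similarly at the top and differently below. The type I induced genes averaged 0.28, 0.08, 0.50, -0.12, 0.81 and 1.36 above the normal mean in HCC 1 to HCC 6, where single normal livers lay between -0.18 and 0.21. The gamma induced GTPases averaged 0.06, -0.16, 0.16, 0.14, 0.43 and 1.43, where normal livers lay between -0.24 and 0.27. The class I processing genes averaged 0.26, 0.27, 0.24, 0.34, 0.68 and 1.08, where normal livers lay between -0.14 and 0.15, so all 6 tumours lay above all normal livers in that group, 4 in the type I group and 2 among the GTPases.

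Markers of leukocytes also differed between the tumours. The summed intensity of 5 pan-leukocyte markers was 1769 to 12059 in HCC (median 4480) and 1412 to 2969 in normal livers (median 2342), and their mean above the normal livers was -0.49, -0.15, 1.18, 0.49, 1.42 and 2.34 in HCC 1 to HCC 6. Class II presentation genes, 6 measured, summed to 4865 to 25631 in HCC and 3878 to 5893 in normal livers, and 14 T and NK cell markers to 808 to 2320 in HCC and 684 to 1010 in normal livers. No measured marker was listed at 0. The 3 tumours with the highest pan-leukocyte means, HCC 6, HCC 5 and HCC 3, were also the highest in the type I induced mean. In the other tumours the order was not shared: HCC 1, lowest in pan-leukocyte markers, had a type I induced mean of 0.28, and HCC 4, at 0.49 in those markers, had the lowest, -0.12. HCC 3, at 1.18 in those markers, had a class I processing mean of 0.24. HCC 1 and HCC 2 had class I processing means close to it, 0.26 and 0.27, and every normal liver lay below these means. In pan-leukocyte markers single normal livers lay between -0.48 and 0.36, with HCC 2 inside that range and HCC 1 just below it. The part of leukocytes in the results was not tested.

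**Figure D5:**
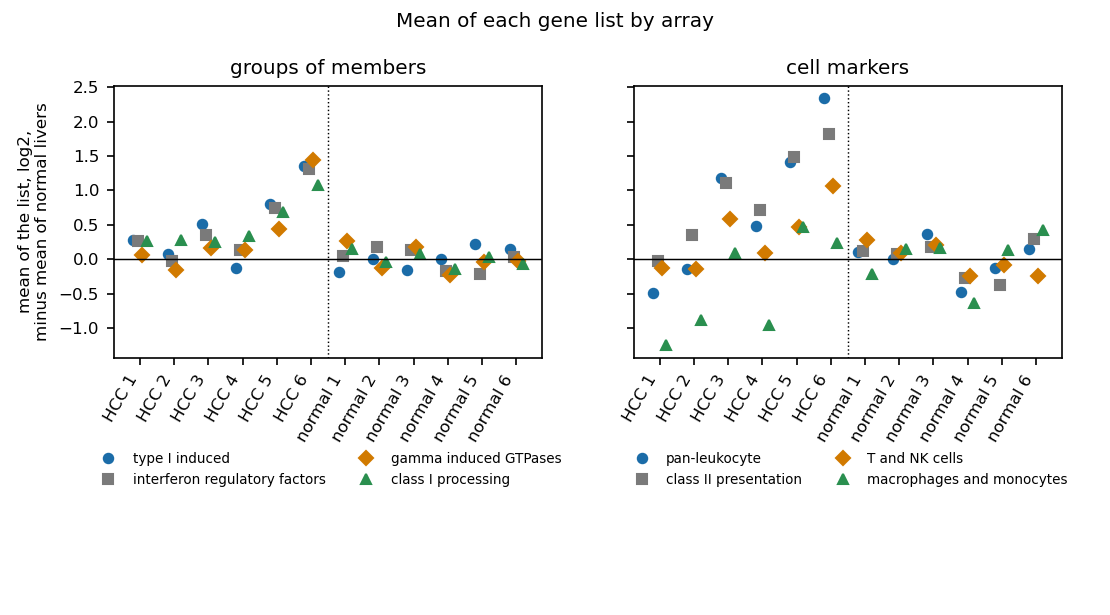
Mean of each gene list by array in log2 units minus the normal mean, HCC left and normal right of the dotted line, for groups of members (left panel) and cell markers (right panel). HCC 6 is highest in all 4 member groups, from 1.08 to 1.43, and pan-leukocyte markers reach 2.34 there.

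By the test over all genes, 0 of 5 pan-leukocyte and 0 of 6 class II genes passed, Ptprc with a difference of 0.99 (limma adjusted p 0.116) and H2-Ab1 with 0.87 (0.0546). Of 14 T and NK cell markers, 10 had differences above 0, with a median of 0.41. The only one that passed, Cd5, was lower at -0.68 (0.0170). Cd5 lay at 5.82 to 6.62 in HCC and 6.55 to 7.25 in normal livers, around the median probe set at 6.76. Among 7 B and plasma cell markers 0 passed (Cd22, -0.49). Of 11 macrophage markers, 5 had differences above 0, up to 1.34 in Cd68 (0.107), and 3 were lower, the resident macrophage genes Timd4 at -2.11 (0.00609) and Clec4f at -2.36 (0.0167), and Cd163 at -1.16 (0.0338). Of 7 dendritic cell markers the integrin Itgax was higher at 2.01 (0.0241), while 5 had differences below 0 and the list's median was -0.15. Of 7 endothelial markers, the sinusoidal genes Clec4g and Stab2 were lower at -2.13 (0.0184) and -1.11 (0.0175), and 3 had differences above 0, up to 1.38 in Pecam1 (0.0783). Of 7 stellate and fibroblast genes, 4 had differences above 0, and Col1a1 was higher at 3.27 (0.0408) and Lrat and Dcn were lower at -2.52 (0.0150) and -2.07 (0.0464). Cd163 missed the threshold without HCC 1, HCC 2, HCC 4, HCC 6, normal 4, normal 5 or normal 6 (up to 0.0750), Itgax without normal 4 (0.0528), Col1a1 without HCC 3, HCC 4, HCC 5 or any of normal 1 to normal 5 (up to 0.0832), and Dcn without any array other than HCC 5 and HCC 6 (up to 0.0926). Ahsg, of the hepatocyte markers, differed by 0.26 (0.139).

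The rest of the pathway was read in the same way, beginning with the ligands, of which 6 of 10 were measured, 0 were higher and 2 were lower. Ifnb1, interferon beta, lay at 4.30 to 6.76 in HCC and 5.71 to 6.69 in normal livers (-1.25 ± 0.38, limma adjusted p 0.0438), and Ifna2, an interferon alpha, at 6.71 to 7.74 in HCC and 7.53 to 8.54 in normal livers (-0.79 ± 0.24, 0.0435). Most of these signals lay near or below the median probe set, and in both genes the groups overlapped. Ifnb1 stayed past the threshold only without HCC 5 or normal 5 (up to 0.0878 without the others). Its difference was -2.09 at a pseudocount of 1 and -0.61 at 64, and it also missed the threshold at both, on the deposited scaling, with the replicate block and with the exact Wilcoxon test (adjusted p 0.0507, 0.0519, 0.0558, 0.119 and 0.209). Ifna2 missed the threshold without HCC 1, HCC 4, HCC 6, normal 2, normal 3, normal 5 or normal 6 (up to 0.0919), at a pseudocount of 1, on the deposited scaling, with median centring and with the exact Wilcoxon test (adjusted p 0.0509, 0.0982, 0.0554 and 0.0830).

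Of 9 receptor and JAK-STAT genes, 2 were higher and 0 lower. Ifngr1, the ligand-binding chain of the gamma receptor, had 11.20, 10.84, 10.58, 11.28, 10.54 and 10.97 in HCC 1 to HCC 6, against 9.12 to 9.60 in normal livers. The groups lay far apart, with a difference of 1.53 ± 0.16 and a limma adjusted p of 0.000101, and the call held without each array in turn (up to 0.000435). Il10rb, a chain shared by the lambda interferon and interleukin 10 receptors, lay at 9.66 to 11.58 in HCC and 8.91 to 9.75 in normal livers (1.06 ± 0.30, 0.0329), and missed the threshold without HCC 5, normal 1, normal 2, normal 4 or normal 5 (up to 0.0715).

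Among 14 genes of nucleic acid sensing upstream, Ikbke, a kinase that activates Irf3 and Irf7, was higher with 9.22 to 10.38 in HCC and 8.67 to 9.22 in normal livers (0.88 ± 0.20, limma adjusted p 0.0117). Tlr7, an endosomal receptor of single-stranded RNA, lay at 6.40 to 7.61 in HCC and 4.65 to 6.83 in normal livers (1.25 ± 0.36, 0.0365). Most of these signals lay near or below the median probe set. Tlr7 missed the threshold without HCC 2, HCC 4, HCC 5, HCC 6, normal 1, normal 4, normal 5 or normal 6 (up to 0.0783). Of 7 feedback inhibitors 0 passed, and Nlrx1, a mitochondrial inhibitor of RNA helicase signalling, came closest at -0.50 (0.0512).

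Of 29 further interferon induced genes, 6 were higher, 0 were lower and 26 differences were above 0, with a median of 0.44. Cxcl9, a gamma induced chemokine for T cells, had 10.97, 9.69, 11.19, 11.10, 10.68 and 13.22 in HCC 1 to HCC 6, against 8.50 to 9.46 in normal livers, with no overlap (2.22 ± 0.45, limma adjusted p 0.00668). Its relative Cxcl10 lay at 8.13 to 10.28 in HCC and 7.22 to 8.14 in normal livers (1.36 ± 0.34, limma adjusted p 0.0200), HCC 2 and HCC 5 at the top of the normal range. Oas1a, a synthetase of the family whose other measured members did not pass, lay at 8.33 to 11.62 in HCC and 8.19 to 8.85 in normal livers (1.83 ± 0.47, 0.0214), with HCC 4 alone inside the normal range. Ifi27 lay at 12.20 to 12.96 in HCC and 11.26 to 12.17 in normal livers (0.89 ± 0.21, 0.0161). These 4 passed without each array in turn.

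Of 11 class I heavy chain and assembly genes, 1 was higher, Pdia3, an endoplasmic reticulum disulfide isomerase of the loading complex, with 14.14 to 14.57 in HCC and 13.66 to 14.05 in normal livers (0.46 ± 0.12, limma adjusted p 0.0258). It missed the threshold without normal 3, normal 4 or normal 6 (up to 0.0606). The list's median difference was 0.10, against 0.54 for the 7 class I processing genes. The heavy chains H2-K1 and H2-D1, whose probe sets may also bind related heavy chains, differed by -0.19 and 0.22 and did not pass. The closest constitutive proteasome gene, Psma7, differed by 0.25 (0.323).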

How the data were processed

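RNA of 6 HCC and 6 normal livers was measured on 12 arrays. The RNA extracts were made with TRIzol and DNase on a column, and 1 microgram was amplified and biotin-labelled, per the labels. The intensity values, as deposited by the authors, are linear signals of 45101 probe sets. Their 2% trimmed mean was 500.0 on every array. How probes were summarised is not stated there, and 0 sample columns were left unused.

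Here log2(intensity + 16) was quantile normalized and the tests dropped the 64 controls. Among the remaining probe sets, 34945 named 1 gene, 932 named several and 9160 named none in the platform annotation. Each of 18193 genes took its brightest probe set. The groups were compared with limma 3.58.1 (lmFit, eBayes) under R 4.3.3, two-sided, and p-values were adjusted by Benjamini-Hochberg, at a threshold of 0.05, after the code was tested on simulated data. Python 3.11.15 made the tables with pandas 2.3.3, scipy 1.17.1 and numpy 2.4.6, and the figures with matplotlib 3.10.9.

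The members and lists were chosen with earlier results of these data known. Values by array are given for members past the test, those with an SD above 1 among HCC, and the largest and smallest difference of each group, with Ifit1, Ifit3, Irf1, Iigp1, Psmb10 and Tap1 beside them as close relatives or near the threshold. Of other lists, up to 4 past the test by size are named, or the smallest p. H2-K1, H2-D1, Cd68 and Pecam1 were added after their values were seen, as were the proteasome pairs and the spread without HCC 6. Both groups are numbered 1 to 6, and same-numbered arrays correlated at -0.0147 to 0.0778 in their deviations, and were not treated as paired. Promoters are RefSeq windows of GRCm38.p6. The number of arrays limits the precision.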

Additional observations from a re-analysis of the deposited data

Results flagged for a closer look

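In 5 of the 78 groups of 6 arrays checked, 1 array lay far from the other 5, where chance gives about 1 in 20 groups. In HCC, Rsad2 in HCC 6 was at 12.10 with the nearest tumour at 10.34, and Ifit3 in HCC 6 was at 11.75 with the nearest tumour at 10.00. In normal livers, Cmpk2 in normal 3 was at 7.83 with the nearest liver at 8.47, Irf1 in normal 4 was at 9.91 with the nearest at 10.20, and Irf8 in normal 5 was at 7.47 with the nearest at 7.89. All are log2 intensities.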

How the results depend on the processing

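With 1 setting changed at a time, the number of members higher in HCC, 7 as reported, was 5 to 10 except at a pseudocount of 1 (4) and a threshold of 0.01 (1, Tap2). Leaving out each array in turn gave 3 to 8 members higher, 2 to 4 of them type I induced, 0 to 1 gamma induced GTPases and 1 to 4 class I processing, with 0 members lower throughout, 895 to 1222 genes higher and 919 to 1443 lower. The type I count of 4 became 2 at a pseudocount of 1 and with the exact Wilcoxon test, which lost Usp18 and Bst2, and 0 at the threshold of 0.01. The GTPase count of 0 became 1, Iigp1, at a pseudocount of 64, with the filter on dim genes, with the mean of all probe sets and with the trended robust variance prior. The class I count of 3 became 1 at the threshold of 0.01, where all genes gave 515 higher and 461 lower. Psmb8 passed under 7 of 12 other settings and Bst2 and Tapbp under 6. On the deposited scaling, without quantile normalization, 1404 genes were higher and 1088 lower, so 56.3% of the calls were higher against 47.2% as reported, and 6 members were higher.

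With the replicate number as a block, 5 members were higher, Psmb9, Rsad2 and Tapbp were lost and Xaf1 was gained, 1 class I processing gene was higher, and 862 genes were higher and 839 lower. The same-numbered arrays do not deviate together, so the block is not a pairing. Signs of members turned only in genes that did not pass: Eif2ak2 was 0.0121 on the deposited scaling and 0.00528 with the mean of all probe sets, Ifi35 was -0.0285 with median centring and -0.0318 with the mean of all probe sets, Stat2 was -0.0790 with that mean, Irgm1 was -0.0395 with median centring and -0.0147 with array weights, and Irf7, Irf9 and Gbp3 were -0.0652, -8.54e-05 and -0.0248 with array weights. When single arrays were left out, the differences ran from -0.20 to 0.30 in Irf7, -0.0472 to 0.0857 in Irf9, -0.0283 to 0.11 in Stat2, -0.31 to 0.11 in Oasl1, -0.10 to 0.53 in Oas3, -0.00155 to 0.53 in Mx2, -0.0542 to 0.38 in Dhx58, -0.25 to 0.27 in Gbp3 and -0.0699 to 0.0580 in Irgm1. The cause of these changes was not tested. Of 39 members, the 18 with more than 1 probe set included 7 whose probe sets differed in sign (B2m, Ddx58, Eif2ak2, Ifi35, Parp14, Stat2 and Tap1). The Psmb8 and Psmb9 pair differences, chosen after the data had been seen, kept an adjusted permutation p under 0.05 in all 16 alternatives run. Among the named genes of other lists except Ifnb1 and Ifna2, calls were lost under the exact Wilcoxon test in Oas1a, Tlr7, Clec4f, Cd163, Itgax, Col1a1 and Dcn, with the replicate block in Tlr7, Pdia3, Itgax and Dcn, with the mean of all probe sets in Il10rb, Tlr7, Pdia3 and Col1a1, with the trended robust prior in Cd5, Col1a1 and Dcn, at a pseudocount of 1 in Tlr7 and Dcn, with median centring in Pdia3 and with array weights in Tlr7.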
